A study of Mus musculus with 2 samples.

Results

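Dividing T cells were T cells of a mouse ovarian tumor that carried messages made mostly while a cell copies and divides its genome. They were chosen by measured values in 2 droplet single-cell RNA libraries. A member had at least 2 unique molecular identifiers (UMIs, counted RNA molecules) of Cd3d, Cd3e and Cd3g together, at least 2 of Mki67 and Top2a together, none of Foxp3 and at most 4 of C1qa, C1qb and C1qc together. This rule found 2189 of 15156 kept cells, of which 1344 came from 8770 cells of the control IgG library and 845 from 6386 cells of the antibody library. A cell was kept when its genes numbered 1000 to 8500, its UMIs 1000 to 100000, and mitochondrial messages gave no more than 10% of its UMIs.

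The tumors grew in female C57BL/6 mice, 6 to 8 weeks old, whose peritoneal wall had been abraded before p53-/-, myc, Hras ovarian cancer cells were injected into the peritoneal cavity. Control IgG or Activin A neutralizing antibody was given daily from the day after the injection. By the labels, treatment lasted 10 days and the tissue of the abrasion site was pooled from 7 mice in the control IgG group and 8 mice in the antibody group (the published text gives other numbers of mice and days for its single-cell experiment). By the labels the groups differ in the injected antibody, the same cancer cells, abrasion and schedule being shared, and each pool gave 1 library with 98174850 UMIs for control IgG and 74117462 for the antibody. With 1 library a group no test between the treatments was possible, the difference between treatments and between libraries cannot be told apart, and every interval below is a 95% interval for counting error only.

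A T cell that meets its antigen leaves the resting state and divides. Before S phase the E2F transcription factors turn on genes for nucleotide supply and for the Mcm helicase that opens DNA at replication origins, and histones are made in bulk to package the new DNA. In G2 and mitosis the kinase Cdk1 with its B-type cyclins drives chromosome condensation and spindle assembly, and many genes of this phase share CHR and CCAAT promoter elements read by the DREAM and MuvB complexes and NF-Y. Mki67 encodes the Ki-67 coat protein of mitotic chromosomes, Top2a the topoisomerase that untangles DNA, Stmn1 the microtubule regulator stathmin, Birc5 the chromosomal passenger protein survivin, and Pclaf a partner of the PCNA clamp.

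The promoters of marker genes and of a few partner genes are shown because genes of this program are high together in the cells. The windows run from 120 bases before to 10 bases after the RefSeq transcript start (GRCm38.p6), and capitals mark the CCAAT box (CCAAT), the CHR core (TTTGAA) and the E2F letters TTTGGCGC or TTTCCCGC, on either strand. Cdk1, Ccnb2 (cyclin B2) and the helicase subunit Mcm6 were picked after their letters were seen, and Stmn1 is named only.
Mki67: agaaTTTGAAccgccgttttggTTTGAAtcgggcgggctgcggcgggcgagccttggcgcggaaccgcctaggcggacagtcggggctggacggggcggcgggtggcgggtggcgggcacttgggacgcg
Top2a: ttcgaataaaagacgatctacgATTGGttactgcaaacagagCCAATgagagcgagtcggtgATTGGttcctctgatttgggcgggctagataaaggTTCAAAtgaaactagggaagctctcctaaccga
Birc5: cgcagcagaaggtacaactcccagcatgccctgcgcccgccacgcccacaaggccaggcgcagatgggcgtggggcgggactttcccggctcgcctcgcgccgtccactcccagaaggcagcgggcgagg
Pclaf: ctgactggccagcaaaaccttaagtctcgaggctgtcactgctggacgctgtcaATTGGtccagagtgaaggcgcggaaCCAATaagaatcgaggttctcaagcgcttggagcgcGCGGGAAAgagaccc
Cdk1: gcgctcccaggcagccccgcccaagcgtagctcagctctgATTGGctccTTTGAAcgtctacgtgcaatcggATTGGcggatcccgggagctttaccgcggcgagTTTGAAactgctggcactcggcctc
Ccnb2: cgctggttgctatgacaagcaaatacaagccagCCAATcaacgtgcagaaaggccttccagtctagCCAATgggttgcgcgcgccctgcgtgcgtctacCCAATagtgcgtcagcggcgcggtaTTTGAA
Mcm6: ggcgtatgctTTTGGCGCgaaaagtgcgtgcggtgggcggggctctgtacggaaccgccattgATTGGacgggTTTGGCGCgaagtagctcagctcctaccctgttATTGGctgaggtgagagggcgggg
They lie at chr7:135716370-135716499 (minus strand), chr11:99024180-99024309 (minus strand), chr11:117849117-117849246 (plus strand), chr9:65890203-65890332 (plus strand), chr10:69352903-69353032 (minus strand), chr9:70421545-70421674 (minus strand) and chr1:128359696-128359825 (minus strand). In the printed windows Top2a, Cdk1 and Ccnb2 hold both CCAAT and CHR letters, and Mki67 holds CHR letters alone. There Pclaf and Mcm6 hold CCAAT and E2F letters, and the Birc5 window holds none of these letters. Searched over 300 bases, 3 of the 4 marker promoters hold CCAAT, 2 CHR and 1 E2F letters. Over whole windows of 300 bases, 29 of the 36 promoters found for 34 of 41 G2/M genes hold the CHR core (80.6%), against 17.9% of all 32851 promoters. CCAAT occurred in 77.8% of the G2/M promoters and 37.4% of all, and both together in 66.7% against 6.95%. Among 38 promoters of 31 S-phase genes, 26.3% hold E2F letters, against 1.56% of all and none of the G2/M promoters. A match describes letters and does not show that a factor binds there.

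The T-cell label held for most members but not for all. For each cell, the UMIs of 10 T-cell markers were set against those of 40 markers of B cells, macrophages, neutrophils, dendritic cells, fibroblasts, mesothelium and cancer cells. T markers outnumbered the others in 2045 members (1245 with control IgG and 800 with the antibody). These 10 include the 3 Cd3 genes of the rule. The 7 T markers that the rule did not use outnumbered the others in 2030 members, 91.9% with control IgG and 94.1% with the antibody. In the remaining 144 cells all 10 together did not. These were 7.37% of members with control IgG and 5.33% with the antibody, yet held 26.1% and 20.9% of all members' UMIs, with a median of 53511 and 46781 UMIs a cell against 10596 and 9366 in the others. Their leading markers were those of cancer cells in 65 and 25 cells, of fibroblasts in 17 and 11, and of macrophages in 11 and 6. Of the 144, 44 with control IgG and 10 with the antibody had exactly 2 Cd3 UMIs, the minimum. No doublet caller was run, and whether such barcodes held more than 1 cell was not tested. The division into these sets was chosen after the values were seen, 24 members lay within 2-fold of the line, and gene values below are for the 2045 T-marker-dominant cells (and non-dividing T cells held to the same line) unless all members are named.

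**Figure D1:**
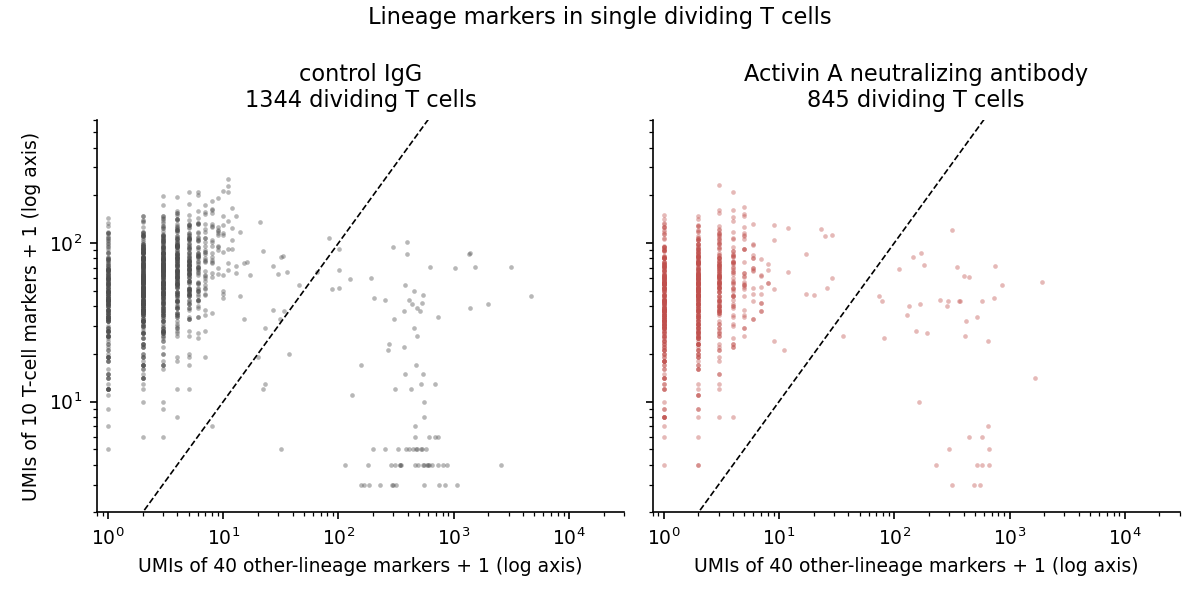
Each point is 1 dividing T cell, with the UMIs of 10 T-cell markers (vertical, log axis) against those of 40 markers of other lineages (horizontal, log axis), 1 added to each, in the control IgG (left) and antibody (right) library. Most cells lie above the dashed line of equality, and 99 and 45 lie on or below it.

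No cell barcode was a member in both libraries (0 shared), 4 members with control IgG and 2 with the antibody had a barcode that was also a kept cell of the other library, and 19 barcodes were shared among all kept cells. Foxp3, which marks regulatory T cells, had at least 1 UMI in 13 further dividing cells with control IgG and 7 with the antibody, which the rule left out. The C1q limit left out 34 and 9 more. Thymocyte markers were near 0 in the members (0.598 and 0.856 UMIs per 1000000, summed over 4 genes) and erythroid markers lower still (0.0498 and 0.285).

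Dividing cells made up a smaller part of the T cells in the antibody library. Of T cells inside the same Cd3, Foxp3 and C1q limits, 25.5% of 5268 were dividing under control IgG (24.3 to 26.7) and 20.5% of 4114 under the antibody (19.3 to 21.8), a log2 ratio of -0.31 (-0.44 to -0.19). The intervals do not overlap. Of all kept cells they were 15.3% and 13.2%. Among T-marker-dominant cells the shares were 24.5% and 19.9%. A deeper cell is more likely to pass a limit in UMIs, and members had a median of 11036 and 9698 UMIs against 4122 and 3808 in T cells with no Mki67 or Top2a UMI, called non-dividing here. With every cell thinned to 2000 UMIs (94 and 121 shallower T cells left out) and the rule applied again, 630 of 4669 T cells (13.5%, 12.5 to 14.5) and 413 of 3654 (11.3%, 10.3 to 12.4) were dividing, so the order remained at equal depth.

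The order was also present within CD8 and CD4 cells. CD8 T cells, which kill infected or malignant cells, were taken as cells with at least 2 UMIs of Cd8a and Cd8b1, and CD4 helper T cells as cells with at least 1 Cd4 UMI. Of cells positive for CD8 alone, 31.5% (29.7 to 33.2) were dividing with control IgG and 26.1% (24.3 to 28.0) with the antibody. Of cells positive for CD4 alone, 25.6% (22.9 to 28.5) and 19.5% (16.7 to 22.5) were dividing. T cells with neither, a class that shallow cells enter more easily, had shares of 12.2% and 9.04%. Among T-marker-dominant cells with neither, the shares were 8.68% and 7.99% with overlapping intervals (7.18 to 10.4 and 6.45 to 9.76).

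**Figure D2:**
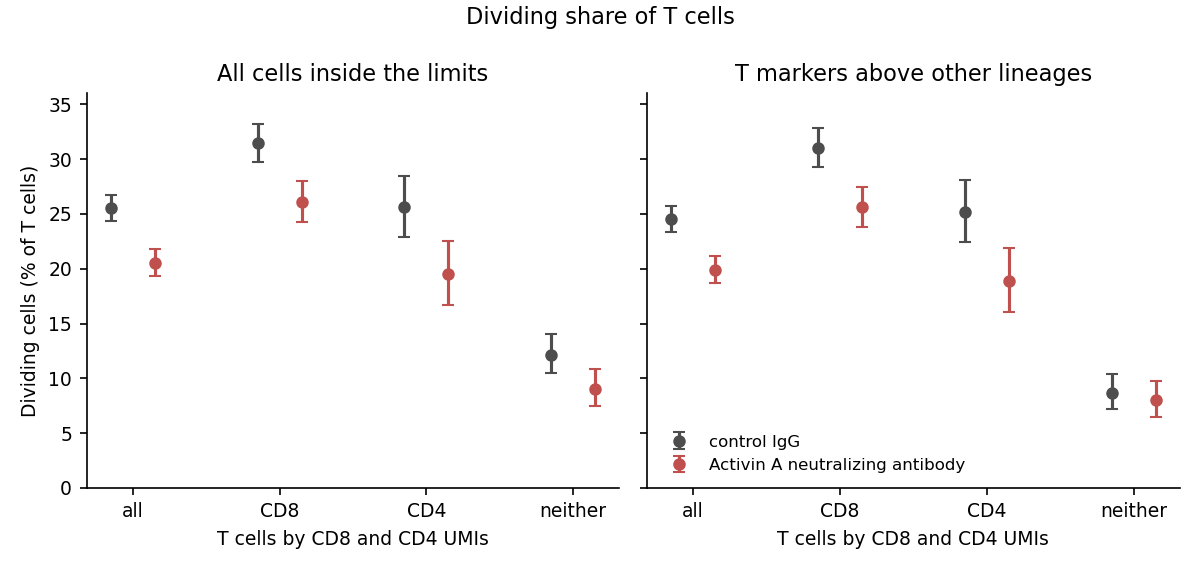
Points give dividing cells as a percentage of T cells (vertical, from 0) in all T cells and in cells positive for CD8 alone, CD4 alone or neither (horizontal), in control IgG (gray) and antibody (red), and bars are 95% Clopper-Pearson intervals for counting error. The left panel holds all cells inside the limits and the right panel the T-marker-dominant ones, where CD8 cells were at 31.0% and 25.6%.

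CD8 cells were the largest class of members. They made up 923 of 1344 members with control IgG (68.7%, 66.1 to 71.1) and 601 of 845 with the antibody (71.1%, 67.9 to 74.2), so this share differed by less than the counting error. CD4 cells made up 21.5% and 19.9%, 35 and 26 cells carried both, and 12.4% and 12.1% carried neither. Among non-dividing T cells, cells positive for CD8 alone were 48.5% and 48.8%, against 66.1% and 68.0% of members, which are deeper. With the same cells thinned to 2000 UMIs, CD8 was called in 44.8% of members (42.1 to 47.5) against 36.1% of non-dividing cells (34.4 to 37.8) with control IgG, and in 41.6% (38.2 to 45.0) against 37.2% (35.4 to 39.1) with the antibody, where the intervals overlap. Where the rule itself was applied after thinning, 51.7% of 630 and 47.0% of 413 dividing cells were CD8. Of the T-marker-dominant members with neither, 15 of 110 (13.6%) and 9 of 87 (10.3%) had a UMI of Trdc, the delta chain of the other T-cell receptor, and non-dividing cells with neither had one in 13.3% and 10.6%.

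Within the members the level of Mki67 and Top2a varied widely, with a median of 11 UMIs a cell with control IgG and 10 with the antibody (10th to 90th percentile 2 to 26 and 2 to 24.6). Just outside the limit, T-marker-dominant cells with 1 UMI had 235 and 154 CPM (UMIs of a gene per 1000000 UMIs of the same cells) of Stmn1, and cells just inside with 2 UMIs had 511 and 336. Summed over 41 genes, the G2/M level was 2162 and 1756 CPM at 1 UMI, 3668 and 2811 at 2 UMIs, and 12115 and 11894 at 21 UMIs or more. Summed over 38 genes, the S-phase level was highest at 6 to 10 UMIs (4880 and 5345) and lower at 21 or more (4354 and 4646). Tcf7, a transcription factor of naive and memory T cells, stood at 205 and 195.1 CPM with no such UMI, at 90.5 and 70.2 with 2, and at 38.4 and 49.4 with 21 or more, the antibody library being lowest at 11 to 20 UMIs (30.2). Il7r, the receptor for the survival cytokine IL-7, was at 464 and 331 in the first set and at 152 and 105 in the last.

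**Figure D3:**
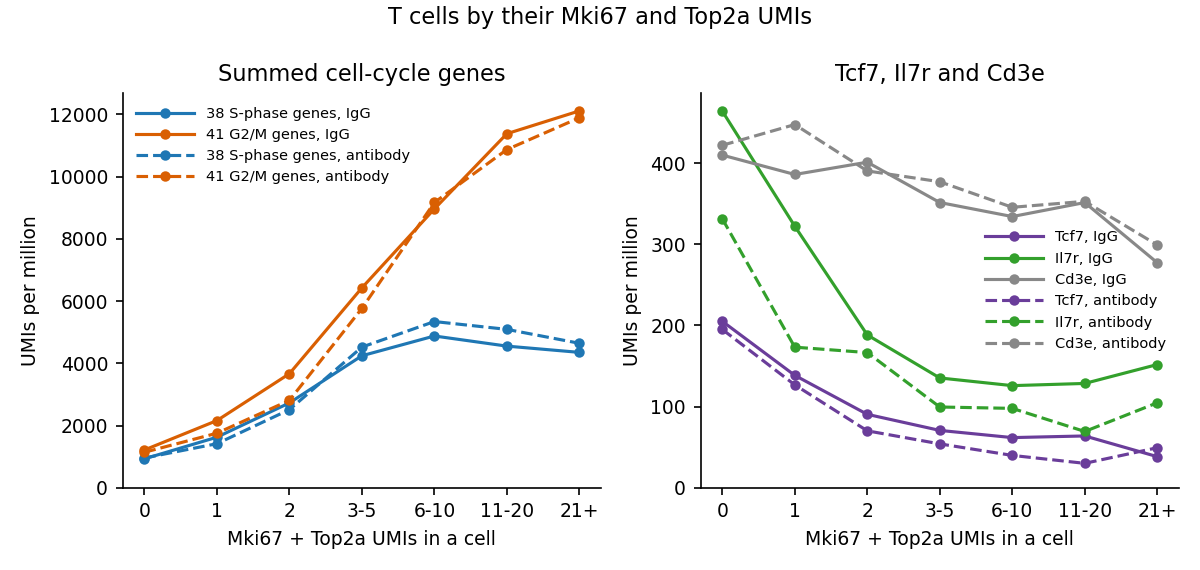
T-marker-dominant T cells are grouped by their Mki67 and Top2a UMIs (horizontal), and the vertical axis gives CPM for the summed S-phase and G2/M lists (left) and for Tcf7, Il7r and Cd3e (right), with solid lines for control IgG and dashed lines for the antibody. The G2/M sum is larger at every step, the S-phase sum is highest at 6 to 10 UMIs, and Tcf7 and Il7r are highest in cells with none.

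The sums of the S-phase and G2/M lists were also set against each other within cells. The sign of such a difference depends on the genes listed and marks no phase. S-phase UMIs outnumbered G2/M UMIs in 23.6% of members with control IgG (21.3 to 25.9) and in 26.4% with the antibody (23.4 to 29.5), and the intervals overlap (31.6% and 36.2% in non-dividing T cells). The log2 ratio of summed S-phase to G2/M UMIs was -1.14 and -0.98, a difference of 0.16 (0.14 to 0.18). It was 0.18 among T-marker-dominant cells, 0.20 in their CD8 cells and 0.11 in their CD4 cells, and in CD4 cells of all members it was 0.04 with an interval that spans 0 (-0.01 to 0.09). The 35 and 26 members with both CD8 and CD4 went the other way, with ratios of -0.91 (-0.98 to -0.84) and -1.12 (-1.22 to -1.02). These intervals count UMIs, which came from few cells. By cells, S-phase UMIs outnumbered G2/M UMIs in 34.3% (19.1 to 52.2) and 23.1% (8.97 to 43.6) of them, and the intervals overlap. Members with neither had ratios of -1.07 and -0.93. Non-dividing T cells had ratios of -0.36 and -0.23, with the antibody library again the higher.

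The next values compare dividing with non-dividing T cells. Mki67 and Top2a formed this contrast, so it is described without a test and nothing is read from its counts. CPM is a share of all UMIs, and T-marker-dominant dividing cells were deeper (median 10596 and 9366 UMIs against 4097 and 3778). A lower CPM here therefore need not mean fewer UMIs a cell. Of 11599 genes with at least 50 UMIs in each library, 10.7% were at least 2-fold higher in all members of both libraries and 4.26% at least 2-fold lower. Among T-marker-dominant cells (10717 genes) 690 genes (6.44%) were higher and 400 (3.73%) lower, with a median log2 ratio of -0.10 over all genes tested. Cancer-cell markers passed the higher limit in 6 of 7 cases over all members and in 0 of 5 among T-marker-dominant cells. These markers helped to choose the T-marker-dominant cells, so nothing is read from the lower count.

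Every G2/M gene and nearly every S-phase gene was higher in the dividing cells. For Mki67 itself the level was 490 CPM with control IgG and 510 with the antibody, and for Top2a 546 and 603, with 0 in the comparison cells by the rule. Stmn1 was at 1194 and 1136 against 67.9 and 62.3, Birc5 at 541 and 453 against 15.4 and 13.5, and Pclaf at 625 and 627 against 14.4 and 14.1. The 3 markers that the rule did not use were thus high in both libraries. After thinning to 2000 UMIs, Stmn1 was seen in 80.8% and 76.6% of dividing cells and in 8.77% and 8.26% of the others.

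All 41 G2/M genes passed 2-fold, with a median log2 ratio of 4.78. Cdk1, whose promoter with 2 CHR cores is printed above, was at 178 and 154 CPM against 3.46 and 4.6. Ccnb2 was at 218 and 173 against 13.2 and 10.2. Bub1, a kinase of the spindle checkpoint, was at 61.1 and 68.8 against 0.466 and 0.937. The chromatin protein Hmgb2 had the smaller ratio of 2.56 and 2.55, since non-dividing cells already held 674 and 619 against 3974 and 3633.

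Of 38 S-phase genes 37 passed, with a median of 2.63. Mcm5, a helicase subunit, was at 134 and 137 CPM against 15.7 and 15.7. Rrm2, the regulated subunit of the enzyme that makes deoxynucleotides, was at 186 and 172 against 5.53 and 5.54. Pcna, the sliding clamp of DNA polymerase, had log2 ratios of 1.61 and 1.78. Slbp, the binding protein of histone messages, did not pass in both libraries (0.94 and 1.10). Of 16 histone genes 14 passed, among them the linker histone Hist1h1b with log2 ratios of 5.69 and 5.83 and the variant H2afz with 2.14 and 2.15. Histone gene copies are nearly identical, so reads could be split between them in the deposited counts.

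Growth genes had smaller ratios than division genes. Of 20 growth and biosynthesis genes 9 passed (median 0.97), and over all members 11 did. Phgdh and Shmt2, which make serine and feed its carbon into nucleotides, had log2 ratios of 2.05 and 1.81 and of 1.55 and 1.76. Ran, the nuclear transport GTPase, had 1.97 and 1.90. Myc had ratios of 0.25 and 0.02, and none of 14 glycolysis genes passed (median 0.42).

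Genes of naive and memory T cells were lower in CPM. Of 16 such genes 13 were at least 2-fold lower in both libraries (median -1.83), against 3.73% of all genes tested. Over all members 13 were lower as well, and Id3 was at least 2-fold higher. The survival protein gene Bcl2 was at 68.0 and 58.9 CPM in dividing cells against 374 and 291. Lef1, the partner of Tcf7, was at 174 and 138 against 390 and 314. Bach2, a repressor that holds T cells in a resting state, was at 97.6 and 113 against 438 and 390.

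Of 16 cell-cycle inhibitor and quiescence genes, the antiproliferative Btg1 (-1.42 and -1.28) and the transcription factor Klf3 (-1.80 and -1.83) passed the lower limit. The CDK4 and CDK6 inhibitor Cdkn2c passed the higher one, with 46.8 and 42.6 CPM against 9.99 and 7.33. Cdkn1b (p27) had log2 ratios of -0.64 and -0.67. Inhibitors of the cycle thus lay on both sides.

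Most effector and inhibitory receptor genes were within 2-fold. The chemokine Ccl5 was at 3470 and 3463 CPM in dividing cells and at 10293 and 11099 in the others (log2 -1.57 and -1.68), while Gzmb, granzyme B, was at 675 and 650 against 625 and 576. Ccl5 UMIs were also common in barcodes under 100 UMIs, taken as free RNA, at 2736 and 2787 CPM, scaled to their own total. Of 18 inhibitory and costimulatory receptors Btla alone passed, on the lower side (-1.32 and -1.18). The PD-1 gene Pdcd1 was at 164 and 176 against 173 and 204. Of 23 transcription factors none passed.

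The activin and TGF beta receptor genes were low or middling in dividing cells. Acvr2a, a type II receptor for activin, was at 6.00 and 5.89 CPM against 26.7 and 20.7, with log2 ratios of -2.15 and -1.81. Ldlrad4, which restrains Smad signaling, had ratios of -1.19 and -1.02. Acvr1b, the type I receptor for activin, was at 3.10 and 4.45 against 6.39 and 5.88. Inhba, which encodes the activin A subunit, was near 0 (0.202 and 0.120 in dividing cells, 0.533 and 0.426 in the others). Over all members Inhba and the type I receptor gene Acvr1 went the other way and were at least 2-fold higher in dividing cells. Inhba was then at 13.2 and 18.1 against 6.14 and 1.53, with 52.1% of the antibody members' UMIs in 1 cell, and Acvr1 at 16.8 and 11.3 against 5.34 and 3.55. In free RNA Inhba was at 12.6 and 35.1, and the part of the cells with markers of other lineages was not tested. Among T-marker-dominant cells the 16 pathway genes tested besides Acvr2a and Ldlrad4 were within 2-fold in at least 1 library, Tgfbr2 among them at 160 and 170 against 255 and 272.

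Outside the lists the highest ratios after the rule genes were those of the histone Hist1h2af, the cohesin acetyltransferase gene Esco2 (66.9 and 74.8 CPM against 0.599 and 0.256), the mitotic gene Pimreg and the mitotic kinase gene Nek2. The lowest were those of Il23r and Cd163l1, which mark innate-like gamma delta T cells. Il23r was at 0.674 and 0.361 against 9.05 and 5.71, with 10 and 3 UMIs in all dividing cells, and Cd163l1 had ratios of -3.80 and -3.63.

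**Figure D4:**
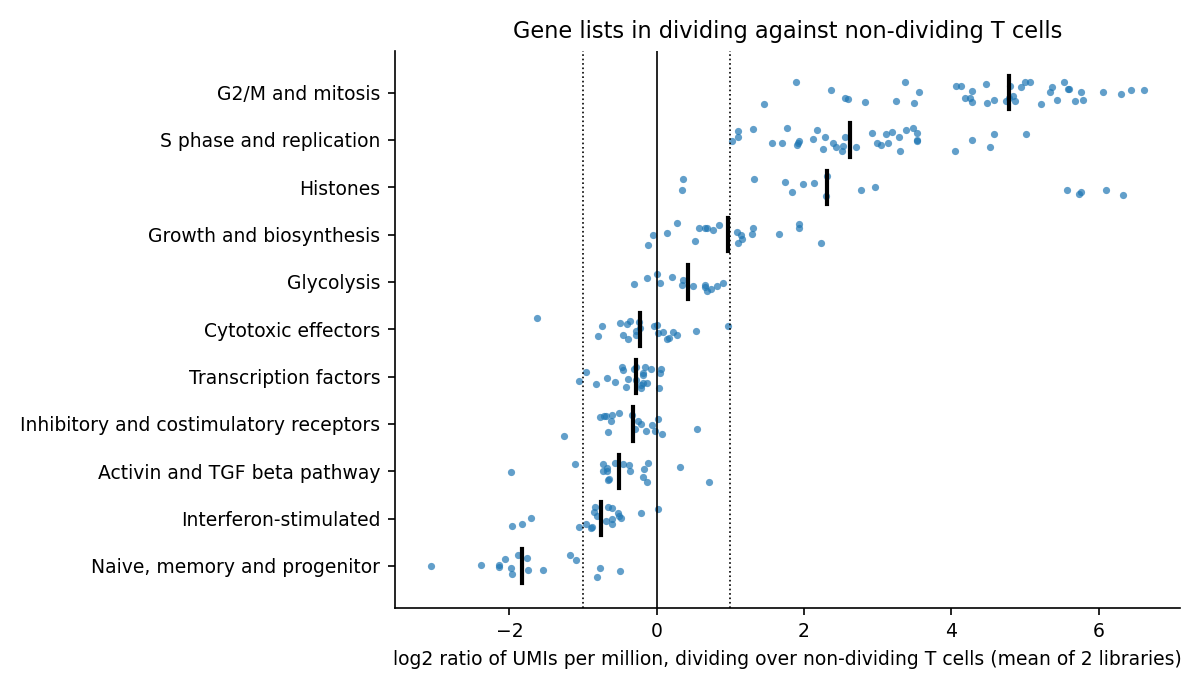
Each point is a gene of a list (vertical), placed by its log2 ratio of CPM in dividing over non-dividing T-marker-dominant T cells, the mean of both libraries (horizontal). Black bars are list medians and dotted lines 2-fold, and genes at 0 on either side are not drawn. G2/M genes have a median of 4.78, S-phase genes 2.63, and naive and memory genes -1.83.

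Cytotoxic effector genes differed between CD8 and CD4 members, and no S-phase, G2/M or histone gene listed differed 2-fold in both libraries. Of 11319 genes with at least 20 UMIs in each library, 1.3% were at least 2-fold higher in CD8 cells of both libraries and 1.02% at least 2-fold lower. Among T-marker-dominant cells (859 and 554 CD8 cells against 241 and 134 CD4 cells) 135 of 10352 genes (1.3%) were higher and 125 (1.21%) lower. Of the 38 S-phase and 41 G2/M genes 0 passed (medians 0.12 and 0.02). Of the 16 inhibitor and quiescence genes, Klf2, a quiescence factor gene, alone passed, at 194 and 113 CPM in CD8 cells and 92.7 and 55.1 in CD4 cells, though not over all members (log2 0.95 and 0.83). Cd8a, Cd8b1 and Cd4 defined the classes and are not results.

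Of 22 cytotoxic effector genes 13 were higher in CD8 members (median 1.52), against the background of 1.3%. Prf1, the pore protein perforin, was at 75.2 and 72.6 CPM in CD8 cells and at 2.20 and 3.44 in CD4 cells. Gzmb was at 896 and 846 against 100 and 77.1, below its level of 161 and 179 in free RNA. The chemokine Ccl4 had log2 ratios of 2.84 and 2.55, and the activating receptor Klrk1 of 3.02 and 1.84. Ifng, the interferon gamma gene, had ratios of -0.42 and -0.57, so that its level lay higher in CD4 cells within 2-fold.

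Of 23 transcription factors tested 4 were at least 2-fold lower in CD8 members and 2 higher. Of 18 inhibitory and costimulatory receptors 2 were lower and 3 higher, and of 15 cytokines and cytokine receptors 4 were lower and 0 higher. Over all genes tested 1.21% were lower and 1.3% higher. Maf, a transcription factor of helper cells, was at 140 and 176 CPM in CD4 cells and at 9.76 and 7.68 in CD8 cells. Zbtb7b, which directs the CD4 lineage, was at 23.8 and 38.5 against 6.96 and 6.83. Tnfrsf4 (the costimulatory receptor OX40) was at 179 and 217 against 14.7 and 26.1, and Il21, a cytokine that helps B cells, at 8.80 and 17.2 against 0.290 and 0.512. On the CD8 side, Runx3, which directs that lineage, was at 362 and 445 against 122 and 184, and the exhaustion-associated receptor gene Havcr2 had log2 ratios of 1.01 and 1.38. Lag3 (51.0 and 77.7 CPM against 31.2 and 27.5) and Pdcd1 (log2 0.02 and 0.16) did not pass in both libraries. Outside the lists, Cd40lg, the ligand by which helper cells signal to B cells, was among the 10 lowest ratios (-4.44 and -5.76), and the receptor gene Crtam among the 10 highest, at 19.6 and 29.0 CPM against 1.47 and 0.688. Cd79b, a B-cell receptor subunit, was also among the 10 highest. B-cell markers summed to 75.7 and 57.5 CPM in CD8 members and 38.9 and 25.5 in CD4 members. Markers of gamma delta or innate-like T cells summed to 58.7 and 54.0 against 19.1 and 13.8, with Trdc and Tcrg-C2 past 2-fold of 3 tested (median 1.66). NK markers summed to 35.5 and 46.3 against 8.06 and 35.8, with Eomes past 2-fold of 3 tested (median 1.55). Markers of other cells lay on both sides. Fibroblast markers were close, at 26.4 and 21.3 CPM in CD4 members and 26.9 and 22.4 in CD8 members. Macrophage markers (70.0 and 17.9 against 81.7 and 14.3) differed in direction between the libraries. Sums of the cancer cell, endothelial and dendritic cell marker lists were higher in CD4 members of both libraries. Cancer cell markers summed to 64.1 and 59.2 CPM in CD4 members against 30.8 and 34.0 in CD8 members, endothelial markers to 62.7 and 76.4 against 35.4 and 37.9, and dendritic cell markers to 23.5 and 11.7 against 4.45 and 4.61. Of these lists Lgals7 and Zbtb46 passed 2-fold on the CD4 side, though not over all members. Pecam1 gave most of the endothelial sum. Over all members, Pecam1 stood at 32.4 and 38.2 CPM where the list summed to 33.9 and 39.1. The endothelial sum was higher in non-dividing T-marker-dominant cells (91.2 and 90.8) than in free RNA (29.2 and 36.6). Whether T cells or endothelial cells carried it was not tested. The part of other cells in the differences, those in cytotoxic genes included, was not tested.

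The last comparison sets antibody against control IgG within the dividing cells. Of 12284 genes with at least 50 UMIs over both libraries, 68 (0.554%) were at least 2-fold higher with the antibody in all members and 235 (1.91%) at least 2-fold lower. Among T-marker-dominant cells it was 60 (0.556%) and 57 (0.528%) of 10800 genes. Without the 144 other cells the lower genes thus numbered 57 in place of 235. Over all members the immunoglobulin gene Igha had 3140 UMIs with control IgG, 98.2% of them in 1 cell, and 0 with the antibody. In non-dividing T-marker-dominant cells 0.463% of 11229 genes were higher and 0.935% lower. Both contrasts use the same 2 libraries, and their values are given side by side.

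No S-phase or G2/M gene differed 2-fold between the treatments in dividing cells (0 of 38 and 0 of 41, medians 0.11 and 0.00 on the log2 scale). Pcna was at 421 and 502 CPM (log2 0.25, 0.20 to 0.31), and Ccnb1, cyclin B1, at 97.4 and 72.4 (-0.43, -0.57 to -0.29). Of 16 histones Hist1h2ap alone passed, at 349 and 110 (-1.67), and it was at 5.53 and 2.47 in non-dividing cells. Cdkn1a (p21), which halts the cycle after damage, was at 37.8 and 72.9 (0.95, 0.78 to 1.11), at 25.4 and 40.3 in non-dividing cells and at 60.9 and 109 in free RNA. In CD4 members it passed 2-fold, at 53.9 and 135 (1.32), also over all members (1.32). In CD8 members it lay at the line, at 31.5 and 63.2 (1.00), and did not pass over all members (0.97).

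Interferon-stimulated genes lay on the higher side with the antibody. All 19 tested had ratios above 0 (median 0.39), against 57.0% of all 10800 genes (median 0.04), and 2 of 19 passed 2-fold. Ifit1, an antiviral RNA sensor, was at 4.92 and 16.2 CPM in dividing cells (1.72, 1.30 to 2.15) and at 24.0 and 50.8 in non-dividing cells. Over all members it did not pass, at 14.9 and 21.8 (0.55), with 25.1% and 36.7% of its UMIs in 1 cell of each library. Isg15, the ubiquitin-like antiviral modifier, was at 41.9 and 82.0 (0.97) and at 96.4 and 154 in non-dividing cells. Rsad2, the antiviral enzyme viperin, had one of the 10 highest ratios (2.27), at 1.55 and 7.46 on 23 and 62 UMIs. Free RNA was higher with the antibody for these genes too, at 12.3 and 18.4 CPM for Ifit1, 67.7 and 90.2 for Isg15 and 7.65 and 12.8 for Rsad2, and its part was not tested. In all members 0 of 21 passed, 17 of 21 lay above 0 and the median was 0.19. In non-dividing cells the median was 0.37 with 20 of 20 above 0.

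Most transcription factor genes listed were also on the higher side. Of 23 transcription factors 22 had ratios above 0 (median 0.31, against 57.0% and 0.04 over all genes), and Nr4a1 and Nr4a3, which are induced by T-cell receptor signals, passed 2-fold. Nr4a1 was at 45.8 and 98.4 CPM (1.10, 0.95 to 1.25), and at 58.1 and 92.5 in non-dividing cells. Nr4a3 was at 29.6 and 62.9 (1.09) and at 41.1 and 80.1. Of 16 immediate-early and heat shock genes 13 lay above 0 (median 0.37), and the AP-1 subunit gene Fosb alone passed, at 35.1 and 74.7 (1.09) and at 48.1 and 74.6. Over all members Nr4a3 passed (23.4 and 51.4, 1.14), while Nr4a1 (48.5 and 95.1, 0.97) and Fosb (57.3 and 90.9, 0.66) did not, and 0 of the 16 did (12 above 0, against 52.3% of all genes). Tox, a regulator of exhaustion, was at 389 and 525 (0.43), and Lag3 at 43.8 and 66.3 (0.60). Free RNA moved with these genes, from 54.2 to 150 CPM for Nr4a1, from 51.5 to 151 for Fosb and from 19.1 to 32.9 for Nr4a3, and its part was not tested.

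Effector genes were on both sides. Gzma, granzyme A, was at 1018 CPM with control IgG and 634 with the antibody (-0.68, -0.73 to -0.64), and Gzmb at 675 and 650. Gzmc was at 16.1 and 37.9 (1.23), with 47.3% of its antibody UMIs in 1 cell, and in CD8 cells at 20.5 and 9.73. Of 15 naive, memory and progenitor genes tested 3 lay above 0 (median -0.21, against 57.0% and 0.04 over all genes). Dapl1 alone of these passed, on the lower side (7.75 and 3.01), and Il7r was at 139 and 97.4 (-0.52). Of 14 glycolysis genes 4 lay above 0 (median -0.21) and 0 passed. Il13, a cytokine of type 2 helper cells, was at 2.97 and 7.58 on 44 and 63 UMIs, with 66.7% of its antibody UMIs in 1 cell. Of the 60 higher and 57 lower genes, 21 and 14 had over 20% of the UMIs of a library in 1 cell. These included the NK receptor gene Klra8, with a ratio of 3.49 on 10 and 63 UMIs.

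None of the 18 activin and TGF beta pathway genes tested passed 2-fold (median 0.13, 14 above 0, against a median of 0.04 and 57.0% above 0 over all genes). Skil, a Smad corepressor that TGF beta and activin signals induce, was at 71.8 and 112 CPM (0.65, 0.52 to 0.77) and Tgif1, another Smad corepressor, at 32.5 and 60.7 (0.90, 0.72 to 1.08). Within the classes Tgif1 alone of the listed pathway genes passed, in CD4 members, at 24.9 and 86.0 (1.79, 1.35 to 2.24) on 68 and 125 UMIs, and it passed there over all members too (1.53). In CD8 members it was at 33.1 and 52.9 (0.68). In non-dividing cells Skil and Tgif1 were at 99.3 and 136 and at 55.6 and 86.3, and in free RNA at 50.2 and 65.2 and at 43.2 and 79.3. Smad7, a feedback inhibitor of the same pathway, was at 127 and 146 (0.20, 0.09 to 0.31).

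Macrophage markers were on the lower side. Over all members 3 of 7 tested were at least 2-fold lower with the antibody, against 1.91% of all genes tested. These 3 were the C1q genes that the rule limits. The median over the 7 was -0.79, and the sum of 8 markers was 199 and 138 CPM. Among T-marker-dominant cells, which these markers helped to choose, all 6 tested were at least 2-fold lower, among them C1qb (7.35 and 1.08 CPM, -2.76), Apoe (27.2 and 4.33) and Lyz2 (26.6 and 7.82). Of all genes tested in those cells 0.528% were that much lower. There the sum was 80.0 and 18.6 in dividing cells, 99.9 and 27.9 in non-dividing cells, and 3046 and 1714 in free RNA, and 19.0% and 2.25% of dividing cells had at least 2 such UMIs. Neutrophil markers summed to 6.38 and 198 CPM over all members, where S100a8 and S100a9 had 92.5% and 91.3% of their antibody UMIs in 1 cell, to 2.70 and 6.37 among T-marker-dominant cells, and to 121 and 775 in free RNA. The part of free RNA and of macrophages in the differences between treatments was not tested.

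**Figure D5:**
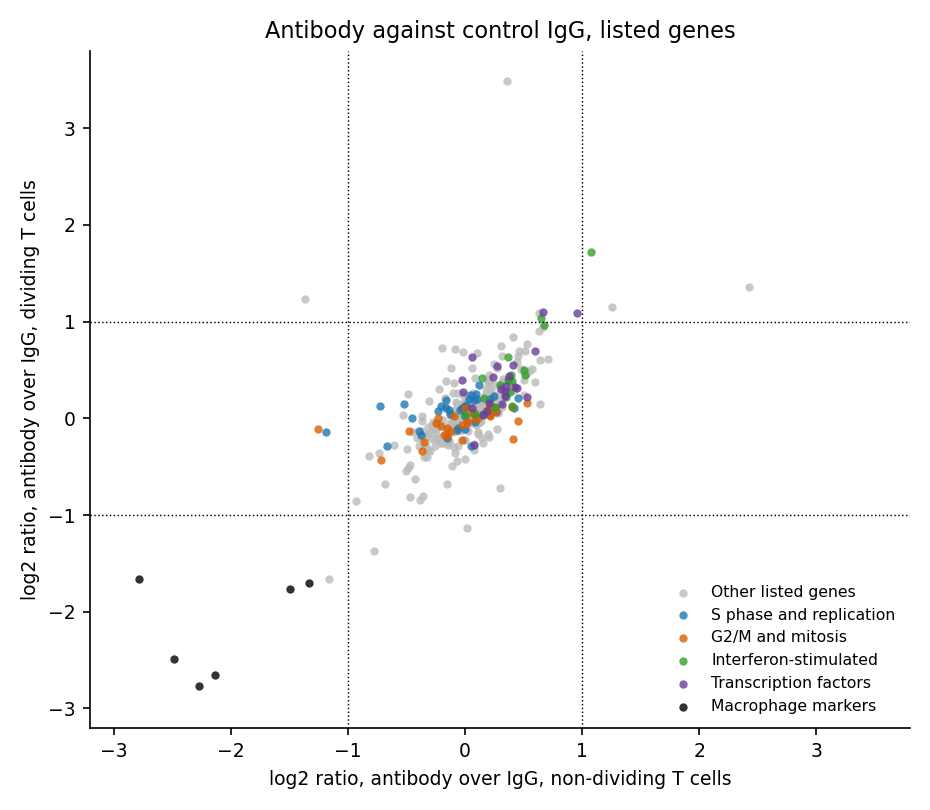
Listed genes are placed by their log2 ratio of CPM, antibody over control IgG, in non-dividing (horizontal) and dividing (vertical) T-marker-dominant T cells, and dotted lines mark 2-fold. Both axes use the same 2 libraries. S-phase and G2/M genes lie within 2-fold on the vertical axis, Ifit1 reaches 1.72, and the 6 macrophage markers lie below -1.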

How the data were processed

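Viable cells of pooled peritoneal wall tumors were sequenced by droplet 3' single-cell RNA sequencing without cell selection. The authors deposited 1 table of raw UMI counts per library for 32285 genes, and the submitters' processing notes name Cell Ranger 7.0.1 and mm10. The file headers name Cell Ranger 4, and the labels and the published methods name different 3' chemistries. Versions can differ in which reads they count, and the conflict was not resolved. All 1484815 and 1316737 barcodes were deposited, so cells were selected here by the limits in the report. Members, gene lists and the named genes were chosen with earlier results of these data known. UMIs were summed over cells and scaled to counts per 1000000 (CPM). Ratios were taken between these sums, with intervals from Poisson (levels), Clopper-Pearson (shares) and conditional binomial (ratios) counts at 95%, for counting error only. Named genes came from the rule genes and 5 markers, the list members at least 2-fold apart (or else the up to 4 most abundant), and the 10 highest and 10 lowest ratios of each contrast; Cdkn1b, Myc, Ifng, Acvr1b, Tgif1, Skil and others inside 2-fold were added after their values were seen. For list medians a count of 0 was set to 3 counts. The subset of T-marker-dominant cells and the CD8 calls at equal depth were also chosen after values were seen. No reads were reassigned, no doublets were called and no batch was corrected. The depth was a median of 5719 and 4660 UMIs per kept cell. NumPy 2.4.6, SciPy 1.17.1 and pandas 2.3.3 were used, and the procedure was tested on simulated data. Of 404 listed genes, 1 was not measured.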

Additional observations from a re-analysis of the deposited data

Results flagged for a closer look

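Gzma and Cd160 stood out because their antibody over control IgG ratios lay on opposite sides of 0 in dividing CD8 and CD4 T cells, with counting intervals off 0 on both sides and at least 1 ratio past 2-fold. Of 303 listed genes with at least 50 UMIs in both classes, these 2 met that description, and the difference between the classes was not tested since each class has 1 library a treatment. In CD8 cells Gzma was at 1250 CPM with control IgG and 723 with the antibody (log2 -0.79, -0.84 to -0.74), and in CD4 cells at 59.0 and 125 (1.09, 0.77 to 1.40). Its level in free RNA was 290 and 304, above that in the CD4 cells. NK markers in T-marker-dominant CD4 members summed to 8.06 CPM with control IgG and 35.8 with the antibody, and their part was not tested. Cd160 was at 51.9 and 60.4 in CD8 cells (0.22, 0.02 to 0.42) and at 27.5 and 11.7 in CD4 cells (-1.23, -2.09 to -0.46), the last from 75 and 17 UMIs. In non-dividing cells Gzma had the same opposite signs (-0.88 in CD8 and 0.38 in CD4 cells). Cd160 was near 0 there (0.08 and -0.09).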

How the results depend on the processing

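The lower dividing share with the antibody (log2 -0.31) stayed below 0 in all 10 alternatives, from -0.35 to -0.18, and was -0.18 without cells with 2 UMIs of another lineage. The CD8 share of members (0.05) stayed within its interval in 10 of 11 and was -0.14 with cells thinned to 2000 UMIs. The S-phase to G2/M difference (0.16) was above 0 in all 11. It was 0.18 with 0 C1q UMIs, 0.28 without cells of another lineage and 0.13 as a mean over cells. In members chosen after thinning, with their UMIs summed at full depth, it was 0.27. The 303 genes 2-fold apart between treatments became 197 with at least 3 Cd3 UMIs and 92 without cells of another lineage. They became 101 in members chosen after thinning, again at full depth, and 117 in T-marker-dominant cells (chosen after seeing the data). They numbered 157 at double the UMI minimum, 1269 at 10 UMIs and 1098 at 1.5-fold. With 0 C1q UMIs 137 were higher and 74 lower, against 68 and 235. The 1732 between dividing and non-dividing cells became 1090 in T-marker-dominant cells and 3960 at 1.5-fold. The 263 between CD8 and CD4 members became 170 at double the minimum, 408 at 10 UMIs and 696 at 1.5-fold. The cause of these shifts was not tested. No paired analysis was possible because each treatment has 1 pooled library. Depth limits genes with few UMIs, as the interval of Cd160 in CD4 cells shows (-2.09 to -0.46).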
